A study of Homo sapiens with 18 samples.

Results

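The genes described here are 10 transcription factors of the immediate early response. They are the AP-1 subunits FOS, FOSB, FOSL1, FOSL2, JUN, JUNB and JUND, the related factor ATF3, the zinc finger factor EGR1 and the orphan nuclear receptor NR4A2. Their probe sets were taken by annotation alone, with no measured value: every probe set that the array annotation gives to exactly 1 of these genes was kept. This gave 26 of the 54675 probe sets on the array, namely 5 for FOSL2, 4 each for JUN and JUND, 3 each for ATF3, EGR1 and NR4A2, and 1 each for FOS, FOSB, FOSL1 and JUNB. All 26 passed the filter on low signal. The values are log2 signals per probe set, so a difference of 1 is a doubling of signal.

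Transcripts were measured on 18 Affymetrix human 3' arrays in cells of 143B and MNNG/HOS (MNNG below), established human osteosarcoma lines that both derive from the line HOS. 143B was made from it by transformation with an activated RAS oncogene and MNNG/HOS by treatment with a chemical carcinogen. All arrays are from cells that carried the green fluorescent protein ZsGreen and had grown as orthotopic tumors of bone or as lung metastases of those transplants. PKH26, a membrane dye that dividing cells dilute, separated the dye-retaining cells (High, called tumor-initiating cells in the labels) from the bulk of dye-diluted cells (Low) by flow sorting of the dissected soft tissue component of each tumor. The groups are 143B_High (3 arrays, from tumor 143B-1253 and from the pools 143B-51&52 and 143B-54&55, each made for lack of RNA), 143B_Low (5 arrays, tumors 143B-1251 to 143B-1255), MNNG_Lung (2 arrays from lung metastases of the orthotopic transplants, named 1233 and Mix), MNNG_High (4 arrays, tumors MNNG-1231, MNNG-1232, MNNG-1235 and MNNG-1233) and MNNG_Low (4 arrays, the same tumors). The design text gives 150000 sorted cells for High and 700000 for Low, and does not say if the lung metastasis cells went through a sort. Each line is 1 cell line, so a difference between lines is a difference between these 2 lines and their tumors.

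Immediate early genes are switched on within minutes of a stimulus without new protein synthesis, and their transcripts are short-lived. FOS and JUN family proteins pair through a leucine zipper to form AP-1, which binds DNA and controls genes of growth, invasion and matrix breakdown. FOS was first found as an oncogene in viruses that cause osteosarcoma, and the FOS proteins act in bone-forming and bone-resorbing cells. JUN and FOSL1 respond to MAP kinase signalling, and FOSL1 depends on sustained ERK activity. Tissue dissociation and sorting are themselves known to induce FOS, JUN and EGR1 in cells from solid tissue, and no unsorted bone tumor was analysed here.

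Transcription of these genes is controlled in large part by short elements just upstream of the start site. RefSeq promoter windows (GRCh38.p14) were found for 8 of the 10 members, FOSL1 and NR4A2 being the others. The 250 bases before the start are printed for FOSB, JUN, JUND and EGR1, the members with an entry of which at least 1 probe set was lower in 143B_Low than in MNNG_Low. Each is written 5′ to 3′ along the gene, and capitals mark matches to 4 motifs searched on both strands. These are an ATF or CRE-like site (TNACNTCA), the AP-1 site TGANTCA, the TATA motif TATAAA, and the CArG box, the element bound by serum response factor.
FOSB: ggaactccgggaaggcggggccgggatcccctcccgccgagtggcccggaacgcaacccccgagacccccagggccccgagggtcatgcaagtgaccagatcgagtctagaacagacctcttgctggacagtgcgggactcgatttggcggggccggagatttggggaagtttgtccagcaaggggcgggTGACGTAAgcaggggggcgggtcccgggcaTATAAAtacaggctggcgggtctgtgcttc
JUN: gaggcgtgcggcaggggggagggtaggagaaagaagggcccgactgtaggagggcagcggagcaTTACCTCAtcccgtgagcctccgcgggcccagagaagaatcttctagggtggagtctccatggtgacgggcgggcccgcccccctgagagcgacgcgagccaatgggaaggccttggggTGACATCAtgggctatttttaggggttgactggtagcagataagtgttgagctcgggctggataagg
JUND: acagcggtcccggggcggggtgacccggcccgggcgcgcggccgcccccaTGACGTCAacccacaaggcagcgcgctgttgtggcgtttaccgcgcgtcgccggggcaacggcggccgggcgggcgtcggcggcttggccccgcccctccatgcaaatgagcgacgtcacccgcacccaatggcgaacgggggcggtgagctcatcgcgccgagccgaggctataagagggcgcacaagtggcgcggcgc
EGR1: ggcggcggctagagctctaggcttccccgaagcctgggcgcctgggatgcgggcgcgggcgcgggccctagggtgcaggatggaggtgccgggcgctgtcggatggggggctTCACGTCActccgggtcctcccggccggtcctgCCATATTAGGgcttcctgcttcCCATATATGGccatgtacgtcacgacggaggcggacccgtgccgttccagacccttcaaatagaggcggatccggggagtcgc
The windows lie at chr19:45467746-45467995, plus strand for FOSB, chr1:58784048-58784297, minus strand for JUN, chr19:18281623-18281872, minus strand for JUND and chr5:138465229-138465478, plus strand for EGR1. An ATF or CRE-like site stood in the window of 6 of the 8 members (FOSB, FOSL2, JUN, JUND, ATF3 and EGR1), against 12.9% of the 35116 promoter windows of the same length. JUN held 2 such sites. The TATA motif stood in FOS, FOSB, JUNB and ATF3, against 10.7% of all windows. In FOS, FOSB and JUNB it lay 25 to 33 bases before the start. ATF3 had 2 windows, and its TATA match lay 225 to 230 bases before the start in 1 of them. EGR1 held 2 CArG boxes and was the member with any, against 1.16% of all windows. TGANTCA was in none of the 8, against 6.57% of all. No 2 of the marked matches overlap in the printed windows. A match says only that these letters are present.

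The lung arrays stood apart from the bone tumor arrays. Over all probe sets they correlated with bone arrays at r of 0.477 to 0.758 and with each other at 0.865, while arrays within a bone group correlated at 0.956 or more. Their spread was also narrower, with an interquartile range of 2.09 and 2.28 in log2 signal, against 2.76 to 3.48 on the bone arrays. MNNG-1231 High and MNNG-1233 High were the bone arrays most like the lung arrays. Mean log2 signal over 6 osteosarcoma and osteoblast markers was 8.94 to 9.79 in 143B_High, 8.57 to 9.54 in 143B_Low, 7.83 and 9.31 in MNNG_Lung, from 10.49 to 10.88 in MNNG_High and from 10.26 to 10.83 in MNNG_Low. In these bulk samples, fewer cells of a type and less RNA per cell cannot be told apart. A date-like tag in the labels splits the arrays in 3, and all 143B arrays share a tag that no MNNG array has, so line and tag cannot be told apart. Nothing in the labels says that the tumors were independent beyond their numbers, so p-values measure the spread between these arrays.

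The comparison of 143B with MNNG, made separately in Low and in High cells, asked how the 2 lines differ in these factors in tumors. FOSL1 and 1 probe set of ATF3 were higher in 143B, and FOSB, NR4A2 and 1 probe set each of EGR1 and JUND were lower in both fractions. The High-cell calls of FOSB, EGR1, JUND and NR4A2 204621_s_at and 216248_s_at did not hold when single arrays were left out. Nor did the Low-cell calls of ATF3 and JUND. Of 13 calls in Low cells 8 were kept without each array in turn, and of 9 in High cells 3 were. Of the 26 member probe sets, 2 were higher and 11 lower in 143B_Low than in MNNG_Low (adjusted p under 0.05, limma over 32333 probe sets), and the members' median log2 difference was -0.434 against -0.037 over all probe sets tested. Over all probe sets tested, 12.7% were called higher and 12.4% lower, so the share of members called lower, 42.3%, lay above the background and the share called higher, 7.69%, below it. In 143B_High against MNNG_High, 2 were higher and 7 lower (26.9%), with a background of 19.2% higher and 11.7% lower, and the members' median was -0.301 against 0.021. The arrays of the lines did not overlap in Low cells for 46.2% of member probe sets, against 34.2% of all probe sets tested. In High cells these shares were 38.5% and 37.3%, so separation of the lines there was near the background. The fractions gave separate arrays to these comparisons, but tumors MNNG-1231, MNNG-1232, MNNG-1233, MNNG-1235 and 143B-1253 gave arrays to both. After subtracting group means, the arrays of such a tumor correlated at 0.242 to 0.581, so the comparisons are not independent. By its number, the pool 143B-51&52 may hold cells of tumors 143B-1251 and 143B-1252, which gave Low arrays. In the same way 143B-54&55 may hold cells of tumors 143B-1254 and 143B-1255.

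RNA integrity moved with line in Low cells. The difference in control probe signal between the 3' and 5' ends of GAPDH, which is larger where RNA is more broken down, was 0.43 to 0.85 in 143B_Low and 0.34 to 0.41 in MNNG_Low, without overlap, and 0.58 to 1.04 in 143B_High and 0.50 to 0.75 in MNNG_High, with overlap. With it as a covariate 9 of the 13 Low calls were kept, those lost being JUN 201465_s_at (-0.60 ± 0.24, adjusted p = 0.0923), JUN 201464_x_at (adjusted p = 0.294), JUND 203752_s_at (adjusted p = 0.191) and EGR1 201694_s_at (adjusted p = 0.106). In High cells 5 of 9 were kept, those lost being FOSB (-0.67 ± 0.27, adjusted p = 0.067), JUND 203752_s_at (adjusted p = 0.0872), EGR1 201694_s_at (adjusted p = 0.0863) and NR4A2 204621_s_at (adjusted p = 0.106). The lung arrays, which share the estimate of spread, bear on these comparisons too: without them all 13 Low and all 9 High calls were kept and there were 16 and 11.

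FOSL1 (probe set 204420_at), the FOS family member known for its dependence on sustained ERK signalling, had the largest rise of any member in 143B. Its log2 signal was 10.22, 10.62 and 10.12 in 143B_High and 10.11, 10.37, 9.98, 9.91 and 10.77 in 143B_Low. In MNNG_High it was 8.55, 8.58, 8.37 and 8.16, and in MNNG_Low 8.86, 8.32, 8.53 and 8.44. Every 143B array lay above every MNNG array, and the High and Low arrays of a line overlapped. The signal was 3.23-fold higher in 143B_Low than in MNNG_Low (1.69 ± 0.18, adjusted p = 1.45e-06) and 3.76-fold higher in 143B_High than in MNNG_High (1.91 ± 0.21, adjusted p = 2.36e-06). Both calls held without any 1 array.

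FOSB (202768_at), an AP-1 subunit that activates transcription, ran the other way. Its log2 signal was 10.27, 10.09 and 10.03 in 143B_High and 9.54, 9.49, 9.95, 9.77 and 10.02 in 143B_Low. It was 10.86, 11.17, 11.15 and 10.96 in MNNG_High and 11.10, 11.19, 11.16 and 10.81 in MNNG_Low. All 8 arrays of each line were on its own side, with 143B below MNNG. It fell by 1.31 ± 0.26 on the log2 scale in 143B_Low against MNNG_Low (adjusted p = 0.00103), a call that held without any 1 array. In 143B_High against MNNG_High the difference was -0.90 ± 0.30, adjusted p = 0.0295, and this call was lost without any 1 of the 3 143B_High arrays, without MNNG-1232 High or without MNNG-1233 High, with an adjusted p of up to 0.0879.

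NR4A2, a nuclear receptor without a known hormone ligand that is induced with the immediate early genes, was lower in 143B by all 3 of its probe sets. On 204622_x_at its log2 signal was 9.89, 9.48 and 9.12 in 143B_High and 8.66, 9.13, 8.99, 8.72 and 8.73 in 143B_Low. The MNNG arrays gave 10.85, 10.57, 11.22 and 10.40 in MNNG_High and 9.98, 10.01, 10.81 and 9.71 in MNNG_Low. The order of the group means was MNNG_High, MNNG_Low, 143B_High and 143B_Low from high to low. The highest 143B_High array (143B-1253) overlapped MNNG_Low, and within each fraction all 143B arrays lay below all MNNG arrays. The difference was -1.28 ± 0.24, adjusted p = 0.000509, in Low cells and -1.26 ± 0.27, adjusted p = 0.00195, in High cells. The other probe sets, 204621_s_at and 216248_s_at, gave -1.40 ± 0.28 and -1.47 ± 0.29 in Low cells, and -0.87 ± 0.32 and -1.21 ± 0.33 in High cells. In Low cells the 3 calls held without any 1 array. In High cells 216248_s_at was no longer called without 143B-54&55 High (adjusted p = 0.0606), and 204621_s_at was lost without each of the 3 143B_High arrays and without MNNG-1232 High or MNNG-1233 High (adjusted p up to 0.146).

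EGR1, a zinc finger factor induced through serum response factor, was lower in 143B_Low on 2 of its 3 probe sets. On 201693_s_at its log2 signal was 10.25, 10.35 and 10.58 in 143B_High and 9.50, 9.72, 9.78, 9.93 and 10.02 in 143B_Low. It was 10.62, 11.19, 11.01 and 10.52 in MNNG_High and 10.97, 10.89, 10.99 and 10.18 in MNNG_Low. The Low groups did not overlap, and the lowest MNNG_Low array (MNNG-1235) stood apart from the other three. The difference in Low cells was -0.97 ± 0.23, adjusted p = 0.00388 on 201693_s_at, -0.53 ± 0.15, adjusted p = 0.0131 on 201694_s_at and -0.23 ± 0.27, adjusted p = 0.604 on 227404_s_at. The first and the third of these differed from each other (-0.74 ± 0.17, adjusted p = 0.0105, in the fit on differences between probe sets of a gene). In High cells only 201694_s_at was called (-0.47 ± 0.17, adjusted p = 0.0437), and that call was lost without each of 6 of the 7 arrays, MNNG-1235 High being the exception, with an adjusted p of up to 0.119.

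JUN and JUND, the AP-1 subunits that can pair with FOS proteins or with each other, were lower in 143B_Low on 5 of their 8 probe sets. JUN on 201465_s_at had a log2 signal of 11.50, 11.41 and 11.40 in 143B_High and 10.34, 10.68, 10.66, 10.57 and 9.96 in 143B_Low. It had 11.85, 11.96, 11.37 and 11.08 in MNNG_High and 11.32, 11.75, 11.15 and 10.76 in MNNG_Low. The 143B_Low arrays lay below all other bone arrays on this probe set. The difference in Low cells was -0.81 ± 0.21, adjusted p = 0.00863, whereas in High cells it was -0.13 ± 0.24, adjusted p = 0.706, and was not called. JUN 201464_x_at was also called in Low cells (-0.41 ± 0.14, adjusted p = 0.0355), while 201466_s_at and 213281_at had -0.70 ± 0.33, adjusted p = 0.141 and -0.12 ± 0.22, adjusted p = 0.761. For 201466_s_at all 143B_Low arrays lay below all MNNG_Low arrays, and the same difference was called without the lung arrays (standard error 0.15, adjusted p = 0.00169) and with array weights (adjusted p = 0.000335). In High cells 213281_at was called without the lung arrays (-0.46 ± 0.16, adjusted p = 0.0315). The probe sets 201465_s_at and 213281_at gave different changes (-0.68 ± 0.20, adjusted p = 0.042).

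JUND on 203752_s_at had a log2 signal of 11.84, 11.83 and 11.94 in 143B_High and 11.39, 11.21, 11.44, 11.27 and 11.56 in 143B_Low. It had 12.46, 12.54, 12.26 and 12.12 in MNNG_High and 11.77, 12.11, 11.71 and 11.72 in MNNG_Low. In each fraction all 143B arrays lay below all MNNG arrays. The difference was -0.45 ± 0.15, adjusted p = 0.0357, in Low cells and -0.47 ± 0.17, adjusted p = 0.0464, in High cells. The High call was lost without each of 6 of the 7 arrays, MNNG-1235 High being the exception (adjusted p up to 0.127), and also with no filter and with median centring. The further JUND probe sets, 203751_x_at and 214326_x_at, were called in Low cells at -0.49 ± 0.17 and -0.54 ± 0.16, and 229117_s_at was not (-0.19 ± 0.21, adjusted p = 0.581). On 214326_x_at 3 of the 5 143B_Low arrays lay under the filter value. Of these JUN and JUND calls in Low cells, JUN 201465_s_at was kept without any 1 array (adjusted p up to 0.0458), though not with the GAPDH covariate. JUN 201464_x_at (up to 0.136), JUND 203751_x_at (up to 0.139) and JUND 203752_s_at (up to 0.140) were lost without each of most of the 9 arrays, and JUND 214326_x_at without MNNG-1233 Low (0.0506). The arrays that could be left out with the call kept were 143B-1253 Low and MNNG-1235 Low for JUN 201464_x_at, 143B-1251 Low and MNNG-1235 Low for JUND 203751_x_at, and 143B-1253 Low, 143B-1255 Low, MNNG-1233 Low and MNNG-1235 Low for JUND 203752_s_at.

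ATF3, a stress-induced factor of the ATF family that pairs with JUN proteins, was higher in 143B on 1 of its 3 probe sets. On 202672_s_at its log2 signal was 11.21, 11.32 and 11 in 143B_High and 10.61, 10.95, 10.93, 10.72 and 10.75 in 143B_Low. It was 9.91, 10.41, 10.33 and 10.35 in MNNG_High and 10.29, 10.58, 10.47 and 10.28 in MNNG_Low. Every 143B array lay above every MNNG array, in both fractions. The difference was 0.93 ± 0.15, adjusted p = 0.000152, in High cells, and this call held without any 1 array. In Low cells it was 0.39 ± 0.13, adjusted p = 0.0358, a call lost without each of 7 of the 9 arrays, 143B-1251 Low and MNNG-1232 Low being the exceptions, with an adjusted p of up to 0.107. The other ATF3 probe sets gave -0.42 ± 0.27, adjusted p = 0.237 (1554420_at) and 0.05 ± 0.34, adjusted p = 0.928 (1554980_a_at) in High cells. The change of 1554420_at differed from that of 202672_s_at (-1.35 ± 0.32, adjusted p = 0.00985). However, 1554420_at lay under the filter value on all 3 143B_High arrays and on 3 of the 4 MNNG_High arrays. The size of its change, and of this contrast, is therefore uncertain.

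FOS and most FOSL2 probe sets were not called between the lines, and JUNB was called only in some fits. FOS (209189_at), the partner of JUN in classical AP-1, had 12.02, 11.77 and 11.62 in 143B_High and 11.31, 11.43, 11.75, 11.49 and 10.87 in 143B_Low. It had 11.70, 12.18, 11.96 and 11.45 in MNNG_High and 11.57, 12.04, 11.94 and 11.22 in MNNG_Low. The groups overlapped, with a difference of -0.32 ± 0.46, adjusted p = 0.687 in Low cells (95% interval -1.28 to 0.64). JUNB (201473_at), a weaker activator than JUN, had 8.43, 8.48 and 8.44 in 143B_High and 7.95, 8.15, 8.30, 8.46 and 7.87 in 143B_Low. It had 8.54, 8.96, 9.05 and 8.79 in MNNG_High and 8.48, 8.71, 8.63 and 8.57 in MNNG_Low. In each fraction all 143B arrays lay below all MNNG arrays. The difference was -0.45 ± 0.28, adjusted p = 0.28 in Low cells (95% interval -1.04 to 0.14) and -0.38 ± 0.32, adjusted p = 0.365 in High cells, and neither was called. Without the lung arrays both were (-0.45 ± 0.13, adjusted p = 0.0125, and -0.38 ± 0.15, adjusted p = 0.0464), as with array weights (adjusted p of 0.00948 and 0.0146), but not with the GAPDH covariate (-0.02 and -0.12). For FOSL2, a FOS family member with a role in bone and cartilage, 218881_s_at was lower in 143B_High (-0.49 ± 0.17, adjusted p = 0.0412), a call lost without each of the 3 143B_High arrays and without MNNG-1232 High or MNNG-1233 High (adjusted p up to 0.177). It had -0.42 ± 0.15, adjusted p = 0.0553, in Low cells (adjusted p = 0.0428 without the lung arrays), and the other 4 FOSL2 probe sets differed by -0.46 to 0.002 across the Low and High comparisons without a call.

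**Figure D1:**
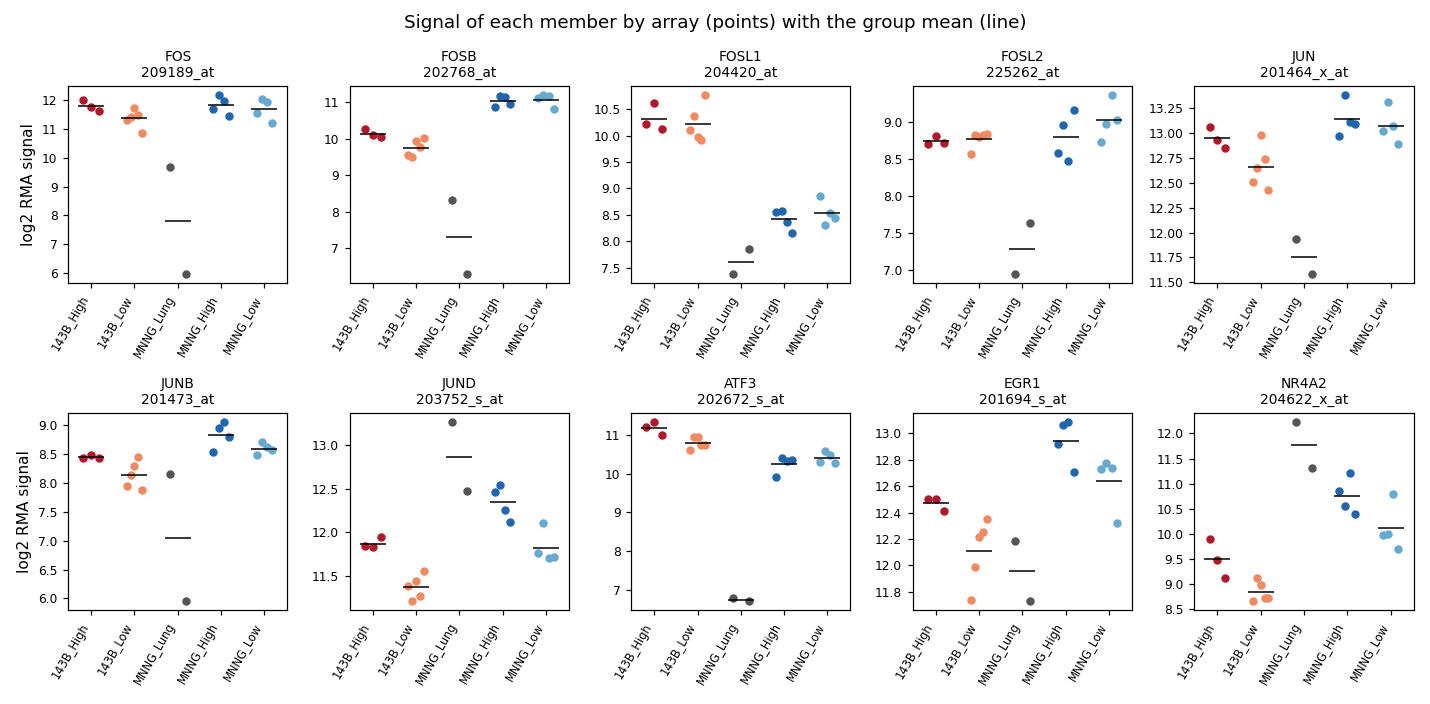
Log2 signal of 1 probe set per member, the one with the highest mean, on each of the 18 arrays (points) with the group mean (line), for 143B_High, 143B_Low, MNNG_Lung, MNNG_High and MNNG_Low. FOSL1 is at 9.91 or more on every 143B array and at 8.86 or less on every MNNG array, and FOSB shows the reverse order in bone tumors.

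**Figure D2:**
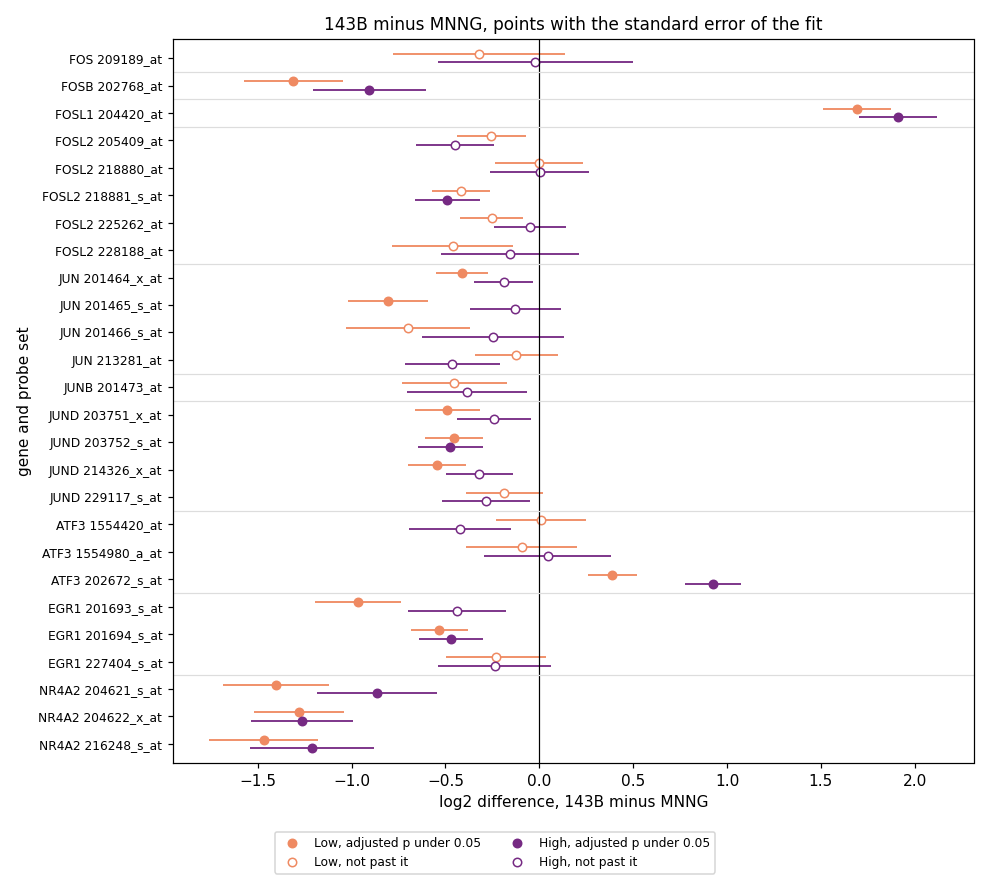
Log2 difference of 143B minus MNNG for the 26 member probe sets, in Low and in High cells, with the standard error of the fit; filled points passed an adjusted p of 0.05. FOSL1 at 1.69 and 1.91 stands to the right of 0, and FOSB and the 3 NR4A2 probe sets stand to the left.

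Genes around these factors were described from lists of related genes, each gene by its probe set of highest mean signal. Over all probe sets tested, 12.7% were called higher and 12.4% lower in 143B_Low than in MNNG_Low. In 143B_High against MNNG_High these shares were 19.2% and 11.7%. Of 16 tested genes known as targets of AP-1, 7 were higher and 3 lower in 143B_Low than in MNNG_Low, with a median log2 difference of 0.603 against -0.037 over all probe sets tested. MMP1, the interstitial collagenase, averaged 12.73 ± 0.67 (SD, n = 5) in 143B_Low and 3.72 ± 0.16 (n = 4) in MNNG_Low, a difference of 9.02 ± 0.28, adjusted p = 7.10e-14. Its MNNG level lay under 5.36, the filter value, so the size of that difference is uncertain. PLAU, the urokinase protease, and PLAUR, its receptor, were higher by 2.50 ± 0.16, adjusted p = 1.46e-09, and by 1.71 ± 0.15, adjusted p = 7.12e-08. MMP13, another collagenase, was lower (-2.23 ± 0.23, adjusted p = 1.02e-06). In 143B_High, 8 were higher and 2 lower, TIMP1, a metalloproteinase inhibitor, being among those that were lower (-1.44 ± 0.18, adjusted p = 1.16e-05).

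Of 25 other immediate early genes, 4 were higher and 7 lower in 143B_Low, with a median of -0.365. NR4A1 and NR4A3, the relatives of NR4A2, were lower, with differences of -0.83 ± 0.14, adjusted p = 0.000224, and -2.14 ± 0.32, adjusted p = 5.57e-05. DUSP2, a phosphatase of MAP kinases in the nucleus, was lower (-2.90 ± 0.34, adjusted p = 3.30e-06), and DUSP6, a phosphatase specific for ERK and induced by it, was higher (1.41 ± 0.24, adjusted p = 0.000192). DUSP4 and DUSP5, further MAP kinase phosphatases, were called higher in 143B_High (1.47 ± 0.33, adjusted p = 0.0025, and 0.94 ± 0.18, adjusted p = 0.000699). Of 14 other factors of the same bZIP class, 2 were higher and 3 lower in 143B_Low. BATF3, which pairs with JUN, rose by 2.12 ± 0.18, adjusted p = 9.09e-08, and MAFF, a small MAF protein, by 1.07 ± 0.17, adjusted p = 0.000112. MAF was lower (-1.25 ± 0.21, adjusted p = 0.000209). Of 15 upstream kinases and factors, 2 were higher and 3 lower, MAP2K1, the kinase that activates ERK, being higher by 0.87 ± 0.19, adjusted p = 0.00231. The counts of the bZIP and upstream lists lay near the background of 12.7% higher and 12.4% lower. Of 9 heat shock genes none was called, with 1 at an unadjusted p under 0.05 and a list median of 0.026. In the same comparison 4 of 5 tested osteosarcoma and osteoblast markers were lower in 143B_Low, RUNX2 with a difference of -1.67 ± 0.21, adjusted p = 8.26e-06, and COL1A1 with -3.03 ± 0.74, adjusted p = 0.00465, and their part in the AP-1 result was not tested.

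The comparison of High with Low cells asked which of these factors differ in the dye-retaining fraction. In 143B no member probe set was called after adjustment. Nevertheless 22 of 26 had a higher mean in 143B_High than in 143B_Low, 10 had an unadjusted p under 0.05, and in 13 every High array lay above every Low array, against 5.48% of all probe sets tested. The members' median was 0.369 and that of all probe sets tested -0.01. Over all probe sets 0.00928% (3) were called and 1795 had an unadjusted p under 0.05. With array weights 4 member probe sets were called higher, 1 of JUN, 2 of JUND and 1 of ATF3, and none under the other settings, the replicate block included. Array weights gave 320 calls over all probe sets.

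JUN 201465_s_at had the smallest p of the members in 143B. Its values in the 3 143B_High arrays, given above, all exceeded the 143B_Low arrays, the lowest High array being at 11.40 and the highest Low array at 10.68, and the difference was 0.995 ± 0.23, adjusted p = 0.395. ATF3 1554980_a_at was 8.40, 8.47 and 7.70 in 143B_High and 7.02, 7.42, 7.69, 7.31 and 7.22 in 143B_Low. The lowest High array and the highest Low array were nearly equal, and the difference was 0.86 ± 0.32, adjusted p = 0.785. NR4A2 216248_s_at was 10.02, 9.28 and 9.03 in 143B_High and 8.27, 8.94, 8.87, 8.47 and 8.49 in 143B_Low. These groups did not overlap, with a difference of 0.84 ± 0.31, adjusted p = 0.782. JUND 214326_x_at was 5.65, 5.84 and 5.87 in 143B_High and 5.07, 5.41, 5.15, 5.07 and 5.45 in 143B_Low, where 3 of the 5 arrays lay under the filter value. Again the groups did not overlap, with a difference of 0.56 ± 0.17, adjusted p = 0.608. EGR1 had higher means in 143B_High on all 3 probe sets (0.61 ± 0.25, 0.36 ± 0.16 and 0.56 ± 0.29). FOS (0.43 ± 0.50), FOSB (0.37 ± 0.29), JUNB (0.31 ± 0.31) and FOSL1 (0.10 ± 0.20) did not pass either. The 4 members with a lower mean in 143B_High were all FOSL2 probe sets, at -0.27 to -0.01.

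In MNNG, 2 of 26 member probe sets were called higher in High cells and none lower, 7.69% against a background of 24.0% called in either direction. JUND 203752_s_at, with the array values given above, was higher by 0.52 ± 0.16, adjusted p = 0.0303, and every MNNG_High array lay above every MNNG_Low array. The High and Low groups did not overlap for 7.69% of member probe sets, against 28.3% of all probe sets tested. FOSL2 205409_at was 5.87, 5.69, 6.14 and 5.19 in MNNG_High and 5.04, 5.32, 5.10 and 5.23 in MNNG_Low. All 4 MNNG_Low arrays and MNNG-1235 High lay under 5.36, the filter value, so the size of that difference is uncertain. The MNNG_High array of tumor MNNG-1235 lay within the Low group, and the difference was 0.55 ± 0.19, adjusted p = 0.0463. The other 4 FOSL2 probe sets had -0.27 ± 0.25, 0.03 ± 0.16, -0.23 ± 0.18 and -0.31 ± 0.34. Of these, 225262_at (-0.23) and 228188_at (-0.31) had the highest signal, with means of 9.02 and 9.13 in MNNG_Low. The change of 205409_at differed from that of 218880_at (0.82 ± 0.24, adjusted p = 0.0406). This was 1 call among 31 pairs of member probe sets, against 10.4% of 20787 pairs of all genes. Of the 26, 19 (73.1%) had a higher mean in High, against 38.2% of all probe sets tested, and the median was 0.244 against -0.168. An unadjusted p under 0.05 was found for 6 of the 26 and for 13535 of all 32333 probe sets, so this count lay below the background.

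The tumor numbers pair High and Low arrays, and with tumor as a replicate block and the lung arrays left out 9 member probe sets were called higher. That fit called 15916 of all 32333 probe sets, 5395 of them higher. Leaving out the lung arrays alone already gave 7 of these 9, the block adding EGR1 201694_s_at and NR4A2 216248_s_at. Over all probe sets, leaving out the lung arrays alone gave 12773 calls, 4733 of them higher. With both changes the calls beyond the 2 above were JUN 213281_at (0.61 ± 0.13, adjusted p = 0.00486), ATF3 1554980_a_at (0.72 ± 0.18, adjusted p = 0.00888) and ATF3 1554420_at (0.53 ± 0.18, adjusted p = 0.0275). They also included EGR1 227404_s_at (0.57 ± 0.12, adjusted p = 0.00502) and EGR1 201694_s_at (0.30 ± 0.12, adjusted p = 0.0476). NR4A2 204622_x_at (0.64 ± 0.13, adjusted p = 0.00413) and 216248_s_at (0.58 ± 0.16, adjusted p = 0.0126) completed them. In all 4 tumors the High array exceeded its Low array for JUN 213281_at, JUND 203752_s_at, ATF3 1554980_a_at, EGR1 201694_s_at and 227404_s_at, and NR4A2 204622_x_at and 216248_s_at. ATF3 1554420_at was higher by 1.07 and 1.01 in tumors MNNG-1231 and MNNG-1233 and differed by -0.03 and 0.06 in tumors MNNG-1232 and MNNG-1235. Of these arrays only MNNG-1231 High reached 5.36, the filter value, and the probe set passed the filter through that array and the lung arrays.

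The labels' tags cross this comparison: all MNNG_High arrays and MNNG-1231 Low share a tag, and the other 3 MNNG_Low arrays have another. Within the shared tag, MNNG_High minus MNNG-1231 Low was 0.58 for JUND 203752_s_at, 0.69 for FOSL2 205409_at, 0.71 for JUN 213281_at, 0.82 for ATF3 1554980_a_at and 0.79 for NR4A2 204622_x_at, from 1 Low array. With the tag as a covariate no member probe set was called, and 2 of all probe sets were. Without MNNG-1231 High no member was called, nor without MNNG-1232 High, MNNG-1233 High, MNNG-1231 Low or MNNG-1235 Low, nor without MNNG-1231 High and MNNG-1233 High together. Without MNNG-1232 Low or MNNG-1233 Low there was 1 call, and without MNNG-1235 High there were 7, with 12929 of all probe sets called. The GAPDH difference between the 3' and 5' ends was 0.50 to 0.75 in MNNG_High and 0.34 to 0.41 in MNNG_Low, and 0.58 to 1.04 in 143B_High and 0.43 to 0.85 in 143B_Low. With it as a covariate 3 member probe sets were called in MNNG, namely JUND 203752_s_at, ATF3 1554980_a_at (adjusted p = 0.0209) and NR4A2 204622_x_at (adjusted p = 0.0485), while FOSL2 205409_at was lost (adjusted p = 0.0805). Mean log2 signal over 10 macrophage markers was 5.63 to 6.08 in MNNG_High and 5.03 to 5.18 in MNNG_Low, and 4 of the 6 tested, AIF1, C1QA, FCER1G and SPI1, were called higher, while C1QB, C1QC, TYROBP and CD163 did not pass the filter on low signal. In 143B that mean was 5.21 to 5.47 in High and 4.86 to 5.04 in Low, with none called and 3 at an unadjusted p under 0.05. Of the tested markers of other cells, 2 of 2 for neutrophils, 1 of 2 for endothelium, 3 of 3 for skeletal muscle and 1 of 3 for lung epithelium were also called higher in MNNG_High, with list means of 4.53 to 6.23 in MNNG_High and 4.41 to 5.72 in MNNG_Low. The part of tag, RNA integrity and these markers in the member differences was not tested beyond these fits.

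The High and Low comparisons of the lines share no array. Of the 26 member probe sets, 18 (69.2%) had a higher mean in High cells in both lines and 3 a lower mean in both, while 29.3% of all probe sets tested were higher in both. The difference between the lines' High and Low differences (MNNG minus 143B) was not called for any member, and 0.00309% (1) of all probe sets was called and 3097 had an unadjusted p under 0.05. ATF3 202672_s_at alone among the members had an unadjusted p under 0.05, with -0.15 ± 0.14 in MNNG and 0.38 ± 0.14 in 143B and a difference of -0.54 ± 0.20, adjusted p = 0.503. For JUN 201465_s_at it was -0.68 ± 0.32, adjusted p = 0.519 (95% interval -1.36 to 0.00). Among the related lists, none of 25 other immediate early genes was called between High and Low in either line, with 4 in 143B and 1 in MNNG at an unadjusted p under 0.05 and medians of 0.243 in 143B and -0.009 in MNNG. In MNNG, MAF and ATF5 among 14 bZIP factors were higher (1.09 ± 0.22, adjusted p = 0.00608, and 0.73 ± 0.17, adjusted p = 0.0093), and CREB1 and ATF7 lower. That count of 2 higher and 2 lower became 4 and 3 without the lung arrays. In the reported fit 24.0% of all probe sets were called in either direction. Among 15 upstream genes MAPK3, the kinase ERK1, was higher (0.46 ± 0.15, adjusted p = 0.0361) and none was lower, with a list median of -0.282, and that count of 1 and 0 became 2 higher and 4 lower without the lung arrays. VEGFA, an angiogenic factor, was higher among the AP-1 targets (0.60 ± 0.18, adjusted p = 0.0242).

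**Figure D3:**
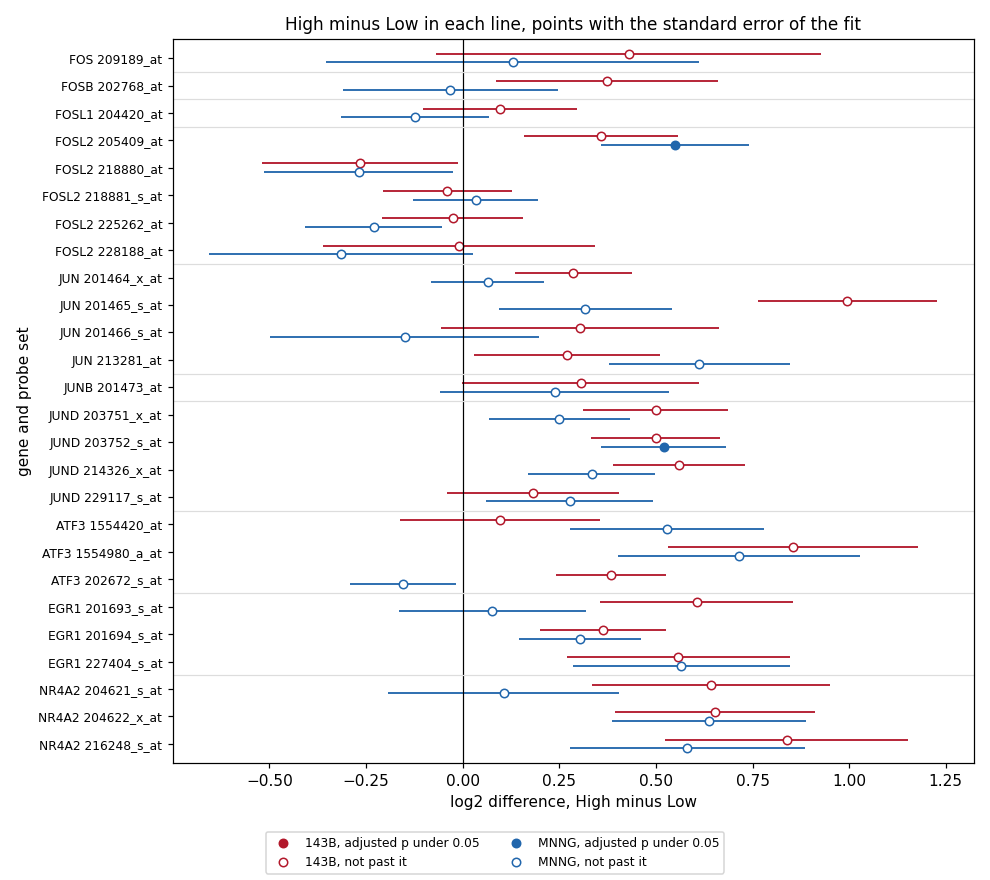
Log2 difference of High minus Low for the 26 member probe sets in 143B and in MNNG, with the standard error of the fit; filled points passed an adjusted p of 0.05. The points lie right of 0 for 22 probe sets in 143B and 19 in MNNG, and only JUND 203752_s_at and FOSL2 205409_at in MNNG are filled.

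The lung metastasis arrays were compared with MNNG_Low and MNNG_High to see how these factors differ between metastasis and bone tumor. Against MNNG_Low 24 of 26 member probe sets were called, 11 higher and 13 lower, where 36.8% of all probe sets were called higher and 47.0% lower, so the members' share (92.3%) lay near the background. Against MNNG_High 22 were called, 10 higher and 12 lower, with a background of 36.4% higher and 41.2% lower. Both comparisons use the same 2 lung arrays. Lung array 1233 bears the number of the tumor that gave MNNG-1233 High and MNNG-1233 Low, so these arrays may not be independent. No block was run for the lung comparisons. Leaving out either lung array gave 23 calls (without 1233) and 21 (without Mix) against MNNG_Low, and 18 and 22 against MNNG_High.

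FOS was 9.67 and 5.96 on the lung arrays 1233 and Mix, below all bone arrays, and differed from MNNG_Low by -3.88 ± 0.59, adjusted p = 7.07e-06. The lung arrays lay far apart for this gene. FOSB was 8.32 and 6.29 and lower than in MNNG_Low, with a difference of -3.76 ± 0.34, adjusted p = 8.90e-09. JUNB was 8.16 and 5.95, with a difference of -1.54 ± 0.36, adjusted p = 0.000709, a call lost without the lung array Mix (adjusted p = 0.0711). All 3 EGR1 probe sets were lower (-2.66 ± 0.30, -0.68 ± 0.19 and -3.77 ± 0.34), the second, 201694_s_at, losing its call without Mix (adjusted p = 0.0755) and turning higher after a second quantile normalization (0.70, adjusted p = 0.00229). All 4 JUND probe sets were higher, by 1.04 to 1.57, 229117_s_at losing its call without the lung array 1233 (adjusted p = 0.0622). In MNNG_Low 203751_x_at, 214326_x_at and 229117_s_at had low signal, with means of 6.30, 5.77 and 5.14. Over all probe sets the median lung difference from MNNG_Low was 0.637 with no filter and -0.351 with it, so probe sets of low signal tended to be higher. JUND 203752_s_at was 13.27 and 12.47 on the lung arrays. FOSL1 was 7.37 and 7.86, with a difference of -0.92 ± 0.24, adjusted p = 0.00147, and became higher (0.34) after a second quantile normalization.

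Probe sets of the same gene went opposite ways on the lung arrays. JUN 201466_s_at was 7.42 and 4.80 on the lung arrays and 11.34, 11.71, 11.41 and 11.31 in MNNG_Low, lower by 5.33 ± 0.43. Its value on Mix lay under the filter value, so the size of that difference is uncertain. JUN 213281_at was 10.66 and 9.17 on the lung arrays and 8.88, 9.33, 8.88 and 8.80 in MNNG_Low, higher by 0.94 ± 0.29, adjusted p = 0.00529, a call lost without the lung array 1233 (adjusted p = 0.444). JUN 201464_x_at was 11.94 and 11.58 on the lung arrays and lower by 1.32 ± 0.18, adjusted p = 1.81e-06, a difference that was 0.067 after a second quantile normalization. JUN 201465_s_at was 11.32 and 10.82 on the lung arrays, overlapping MNNG_Low, and was not called (-0.18 ± 0.28, adjusted p = 0.545), but was 1.42 after that normalization. The changes of 201466_s_at and 213281_at differed by -6.27 ± 0.31, adjusted p = 6.70e-12. ATF3 202672_s_at was 6.79 and 6.70 on the lung arrays, lower by 3.66 ± 0.17 than MNNG_Low. ATF3 1554420_at and 1554980_a_at were higher, by 1.83 ± 0.31 and 2.09 ± 0.38. The first of these reached 5.36, the filter value, only on both lung arrays and MNNG-1231 High. It was thus tested only through groups in which it was high. In FOSL2, 205409_at and 218881_s_at were higher (1.58 ± 0.24 and 0.93 ± 0.20), 205409_at lying under the filter value on all 4 MNNG_Low arrays. FOSL2 218880_at, 225262_at and 228188_at were lower (-0.92 ± 0.30, -1.73 ± 0.22 and -3.90 ± 0.42), the first of them losing its call without Mix (adjusted p = 0.108). For 218880_at both lung arrays, and for 228188_at Mix, lay under the filter value, so the sizes of those differences are uncertain. NR4A2 204622_x_at and 216248_s_at were higher (1.64 ± 0.31 and 1.77 ± 0.37), and 204621_s_at was not called (-0.49 ± 0.36, adjusted p = 0.222).

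Of the 31 pairs of probe sets of 1 gene, 22 changed differently between the lung arrays and MNNG_Low, and 13 of these had opposite signs. The share of 71% is close to the background of 76.2% among 20787 pairs over all genes. No JUND pair differed. Between 143B_Low and MNNG_Low 2 of the 31 pairs differed, against 9.57% of all pairs, and between 143B_High and MNNG_High 1 did, against 13.7% of all. For FOS, FOSB, FOSL1 and JUNB a single probe set leaves no such check. All 9 heat shock genes, 19 of 25 other immediate early genes and 8 of 14 bZIP factors were lower than in MNNG_Low, with list medians of -3.794, -3.116 and -1.212 against -0.351 over all probe sets tested. Over all probe sets tested 47.0% were called lower, so the bZIP count lay near the background. In the same arrays all 6 tested macrophage markers were higher than in MNNG_Low, and the mean log2 signal over the list was 6.86 and 6.99, against 5.03 to 5.18 in MNNG_Low. The mean over 4 lung epithelium markers was 7.09 and 7.53, against 5.57 to 5.72 in MNNG_Low. Of the tested markers of neutrophils 2 of 2 were also called higher, of endothelium 2 of 2 and of skeletal muscle 2 of 3, and none lower. Means over these lists were 5.7 to 6.3 on the lung arrays and 4.41 to 4.97 in MNNG_Low, so the rise was not particular to macrophage and lung markers. All 10 macrophage markers reached 5.36 on a lung array, and the part of other cells in the lung differences was not tested.

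**Figure D4:**
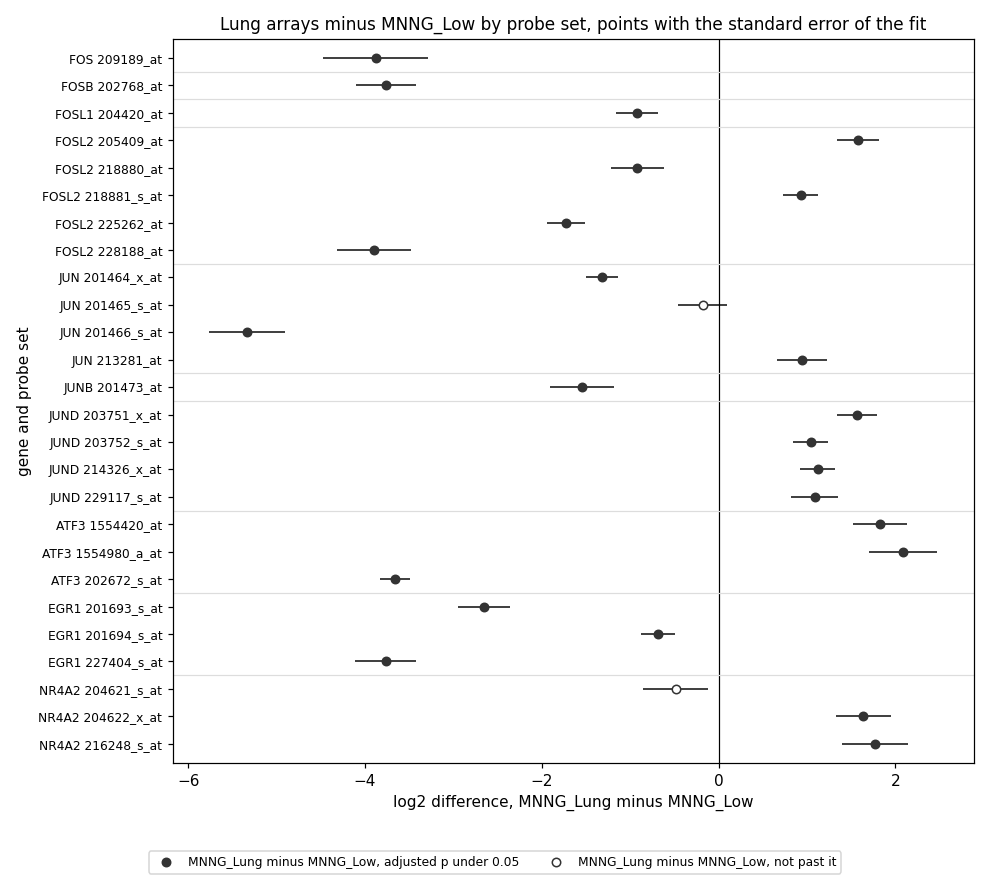
Log2 difference of the lung arrays minus MNNG_Low for the 26 member probe sets, with the standard error of the fit; filled points passed an adjusted p of 0.05. Probe sets of JUN, FOSL2, ATF3 and NR4A2 lie on both sides of 0, from -5.33 for JUN 201466_s_at to 2.09 for ATF3 1554980_a_at, while the 4 JUND probe sets lie on the right and the 3 EGR1 probe sets on the left.

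The genes whose log2 signal ran most like each member over the 16 bone tumor arrays were found by Pearson's r, as a description across arrays that share lines, tumors and processing. JUN was most like ZFP36, an RNA-binding protein that destabilizes immediate early transcripts (r of 0.959), and JUNB was most like its relative ZFP36L1 (0.928). FOS was most like RASD1, a small GTPase (0.856), which was also second for JUN (0.904). NR4A2 was most like CITED2, a transcription co-regulator (0.943). FOSL1 was most like CYP27B1, the enzyme that activates vitamin D (0.979), and FOSB was most like LAT (0.985). EGR1 was followed most closely by EPHA5-AS1 (0.929), FOSL2 by STK17B (0.899), JUND by RCOR2 (0.935) and ATF3 by TMEM223 (0.954). Among the members, r of FOSL1 was -0.891 with FOSB, -0.803 with NR4A2 and 0.812 with ATF3, and that of FOSB was 0.872 with NR4A2 and 0.882 with EGR1. These values carry the difference between lines, since the 143B and MNNG arrays form separate clusters for FOSL1 and FOSB, and no p is given.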

How the data were processed

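Cells of 143B and MNNG/HOS tumors were profiled on human 3' expression arrays, with 18 arrays in 5 groups read from the sample titles. The authors deposited log2 signals, 1 per probe set, and the submitters' processing notes name RMA. That method subtracts background, equalizes the distributions of the arrays and combines the probes into a summary value, so a change shared by most genes can be hidden. No source used here gives its version or says which arrays were normalized together. RNA was extracted with Trizol, treated with DNase and labelled from 100 ng with a 3' kit, per the labels' protocols, so signal near the 3' end depends less on RNA integrity than signal further upstream.

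Genes were named from the platform annotation, which gives 1 gene to 41097 of 54675 probe sets. A probe set, array controls aside, was tested where 3 or more arrays reached 5.364, which is the median log2 signal, leaving 32333. ATF3 1554420_at reached that value only on both lung arrays and MNNG-1231 High. A limma 3.58.1 fit in R 4.3.3 estimated the 5 group means together. There were 7 comparisons, with Benjamini-Hochberg adjustment over all probe sets tested within each, and "called" means an adjusted p under 0.05. A log2 difference is followed by ± its standard error, and SD is named where it is used. Differences between probe sets of 1 gene were fitted the same way over all 20787 such pairs, a fit added after the data were seen. The scripts were tested on simulated data. Arrays have no read depth, so precision is limited by their number and by the spread between them, which the fit pools over all groups.

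Every member probe set is described, with no choice by value. Of a related list, up to 4 genes of smallest p were named for a comparison. The 2 genes most like a member were found by r over the 16 bone tumor arrays. The members and lists were chosen with earlier results of these data known. Tumor numbers in the titles mark the same tumor in High and Low, and after subtracting group means the arrays of a tumor correlated at 0.437, 0.346, 0.242 and 0.581 in MNNG and 0.523 for tumor 143B-1253. Promoter windows came from RefSeq (GRCh38.p14). The alternatives tried were no filter, a second quantile normalization, median centring, the lung arrays left out, array weights, GAPDH integrity or the tag as a covariate, the replicate block, and each array left out in turn. In the replicate block, each 143B pool was grouped with the Low arrays whose tumor numbers end in its own, an assumption from the numbers alone.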

Additional observations from a re-analysis of the deposited data

Results flagged for a closer look

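For 9 of 78 combinations of a member probe set and a group of 4 or 5 arrays, 1 array stood far from the others, with a gap to the nearest array that was large against the whole range of the group (Dixon's criterion). Chance alone gives such a gap in about 1 of 20 groups. Values are log2 signals. In MNNG_Low, tumor MNNG-1235 was low for EGR1 on both 201693_s_at (10.18, others 10.89 to 10.99) and 201694_s_at (12.32, others 12.73 to 12.77), and tumor MNNG-1232 was high for JUN 213281_at (9.33, others 8.80 to 8.88) and JUND 203752_s_at (12.11, others 11.71 to 11.77). In MNNG_High, tumor MNNG-1235 was low for JUN 213281_at (9.16, others 9.69 to 9.75), tumor MNNG-1233 was high for FOSL2 218881_s_at (6.45, others 5.85 to 5.95), and tumor MNNG-1231 was low for ATF3 202672_s_at (9.91, others 10.33 to 10.41). In 143B_Low, tumor 143B-1255 was high for FOSL2 218880_at (6.75, others 5.69 to 5.93) and tumor 143B-1251 was low for FOSL2 225262_at (8.57, others 8.80 to 8.83).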

How the results depend on the processing

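Counts below are member probe sets called. For MNNG_High against MNNG_Low, 2 in the reported fit, there was 1 with no filter, 0 with median centring, 7 with the lung arrays left out, 10 with array weights, 0 with the tag as a covariate and 0 without MNNG-1231 High and MNNG-1233 High. With the replicate block and the lung arrays left out there were 9, and leaving out each array in turn gave 0 to 7. For 143B_High against 143B_Low, 0 in the reported fit, array weights gave 4, and the replicate block gave 0. For 143B_High against MNNG_High, 9 in the reported fit, there were 5 with no filter, 5 with median centring, 16 with array weights, 5 with the GAPDH covariate and 3 without MNNG-1231 High and MNNG-1233 High. Each array left out in turn gave 3 to 11, the lowest count being without 143B-54&55 High. For MNNG_Lung against MNNG_High, 22 in the reported fit, array weights gave 13 and each array left out 18 to 23. The count for 143B_Low against MNNG_Low (13) stayed between 9 and 16, that for MNNG_Lung against MNNG_Low (24) between 18 and 24, and the difference between the lines' High and Low differences had 0 under every setting run. The replicate block was run for the High and Low comparisons and the difference between them, and not for the line and lung comparisons.

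After a second quantile normalization some lung differences turned from lower to higher. Against MNNG_Low these were FOSL1 (0.34), JUN 201464_x_at (0.067), JUN 201465_s_at (1.42), EGR1 201694_s_at (0.70) and NR4A2 204621_s_at (1.23). Against MNNG_High they were FOSL1 (0.15), JUN 201465_s_at (0.92), EGR1 201694_s_at (0.27) and NR4A2 204621_s_at (0.87). The cause was not tested. No difference between bone groups that was called in the reported fit or under the alternative changed direction. Scaling moved the share of calls that were higher among all probe sets: in MNNG_High against MNNG_Low 40.2% in the reported fit, 58.8% after a second quantile normalization and 20% with median centring, with medians of all probe sets of -0.168, -0.025 and -0.283. In 143B_High against MNNG_High the shares were 62.1%, 53.3% and 71.3%. All probe sets called in MNNG_High against MNNG_Low numbered 7775 in the reported fit, 154 without MNNG-1231 High and MNNG-1233 High, and 2 with the tag as a covariate.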
